A study of Mus musculus with 9 samples.

Results

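The genes described here are the ligands, receptors, secreted antagonists and feedback targets of the Wnt pathway in pneumospheres, the spheres that dissociated mouse embryonic lung cells form in suspension culture. The members were chosen by gene symbol among the protein-coding rows of the deposited counts table, and 61 of its 27179 gene IDs qualified. They are 19 Wnt ligands, the ligand-processing genes Porcn and Wls, 10 Frizzled receptors, the co-receptors Lrp5, Lrp6, Ror1 and Ror2, 4 R-spondins with the receptors Lgr4, Lgr5 and Lgr6, 9 secreted antagonists, and 10 feedback and target genes. Lungs of C57/B6 embryos at E11.5 were dissociated with trypsin and left briefly on ordinary plastic, and the cells that stayed in suspension were grown in medium with bFGF, EGF and heparin. The 3 groups are cultures on day 3, day 7 and day 10, with 3 libraries each. All 9 libraries share the strain, tissue and medium, none was treated, and cells were split on days 3 and 7.

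Wnt proteins are secreted, lipid-modified signals. Porcn attaches the lipid and Wls carries the ligand to the cell surface, where Frizzled receptors bind it together with Lrp5 or Lrp6. The canonical branch keeps beta-catenin from being degraded, so that it can act with TCF and LEF factors on genes such as Axin2 and Lef1, while ligands such as Wnt5a and Wnt11 often act without beta-catenin, through Ror2 and other receptors. Secreted Sfrp proteins and Wif1 bind Wnt ligands, Dkk1 blocks Lrp5 and Lrp6, and R-spondins raise Wnt responses by keeping the ubiquitin ligases Znrf3 and Rnf43 from removing Frizzled receptors. In the embryonic lung, Wnt2 and Wnt2b of the mesenchyme are needed to specify the lung, Wnt7b comes from the epithelium, and Wnt5a is made by the distal mesenchyme.

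Library totals ran from 20716878 to 30466712 counts, and a count of 0 in a library allows up to 3 counts, or 0.0985 to 0.145 CPM. CPM is the read count divided by the library total and brought to 1 common scale. This floor covers counting error only. Whether same-day libraries are separate cultures or litters is not labelled, so p-values measure only the spread between these samples, which may be technical. Across genes, same-day libraries had r = 0.979 to 0.993 in log2 CPM. Day 3 replicate 2 stood apart by a single unnamed gene ID that held 6.79% of its counts, against 0.169% to 0.515% elsewhere, and day 10 replicate 3 had the lowest correlation within its day. The labelled enrichment for epithelium did not show in marker genes. Nkx2-1, Foxa1 and Shh had no count in any library, and the 11 lung epithelium markers together summed to 1.46 to 2.21 CPM on day 3, 0.624 to 1.38 on day 7 and 1.14 to 1.69 on day 10. The 11 mesenchyme and fibroblast markers summed to 14600 to 16400 CPM on day 3 and 42100 to 48000 on day 10, with 7 called higher and 3 lower. The collagen genes Col1a1, Col1a2 and Col3a1 made up most of the sum, and the 3 that fell were the lung mesenchyme transcription factor genes Tbx4 (log2 change -2.73), Tbx5 (-2.81) and Tcf21 (-1.40, adjusted p = 0.000643). In these bulk samples, fewer cells of a type and less RNA per cell cannot be told apart.

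Between day 3 and day 10, the antagonists Dkk3, Dkk1 and Sfrp1 rose and Sfrp2 fell. Wif1 went from 1 count in the day 3 libraries together to 34 in those of day 10. The ligand Wnt11 fell, and Wnt9a, Wnt2 and Wnt6 rose. Frizzled transcripts shifted from Fzd8 toward Fzd1, and the negative feedback genes Nkd1, Nkd2 and Notum rose while the transcription factor genes Lef1 and Tcf7 fell. Axin2 and Znrf3, of the same feedback and target group, passed in no comparison. Of the 61 members, 44 had enough counts to be tested. A member with few counts on its low day could pass that filter only through its high day, so the counts below describe the tested members and not all 61. This holds for Dkk1, Wif1, Wnt6 and Notum, low on day 3, and for Fzd6, low on day 10. Their calls add little to the counts themselves. The edgeR quasi-likelihood test, with p-values adjusted by Benjamini-Hochberg over all 14940 genes tested and a threshold of 0.05, called 20 members higher and 12 lower on day 10 (72.7% of those tested). The share among all genes was 56.7%, with 29.5% higher and 27.2% lower. The median log2 change was 0.37 for the members and 0.002 for all genes, and the median size without sign was 1.22 and 0.43. Of the 44 members tested, 23 were called with a change of at least 2-fold, against 21.8% of all genes tested. Without day 3 replicate 2 and day 10 replicate 3 together, 20 were called higher and 12 lower, but not the same members: Fzd2 and Lgr4 were no longer called (adjusted p = 0.0700 and 0.0584), and Ror2 and Fzd7 were (0.00794 and 0.0339).

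**Figure D1:**
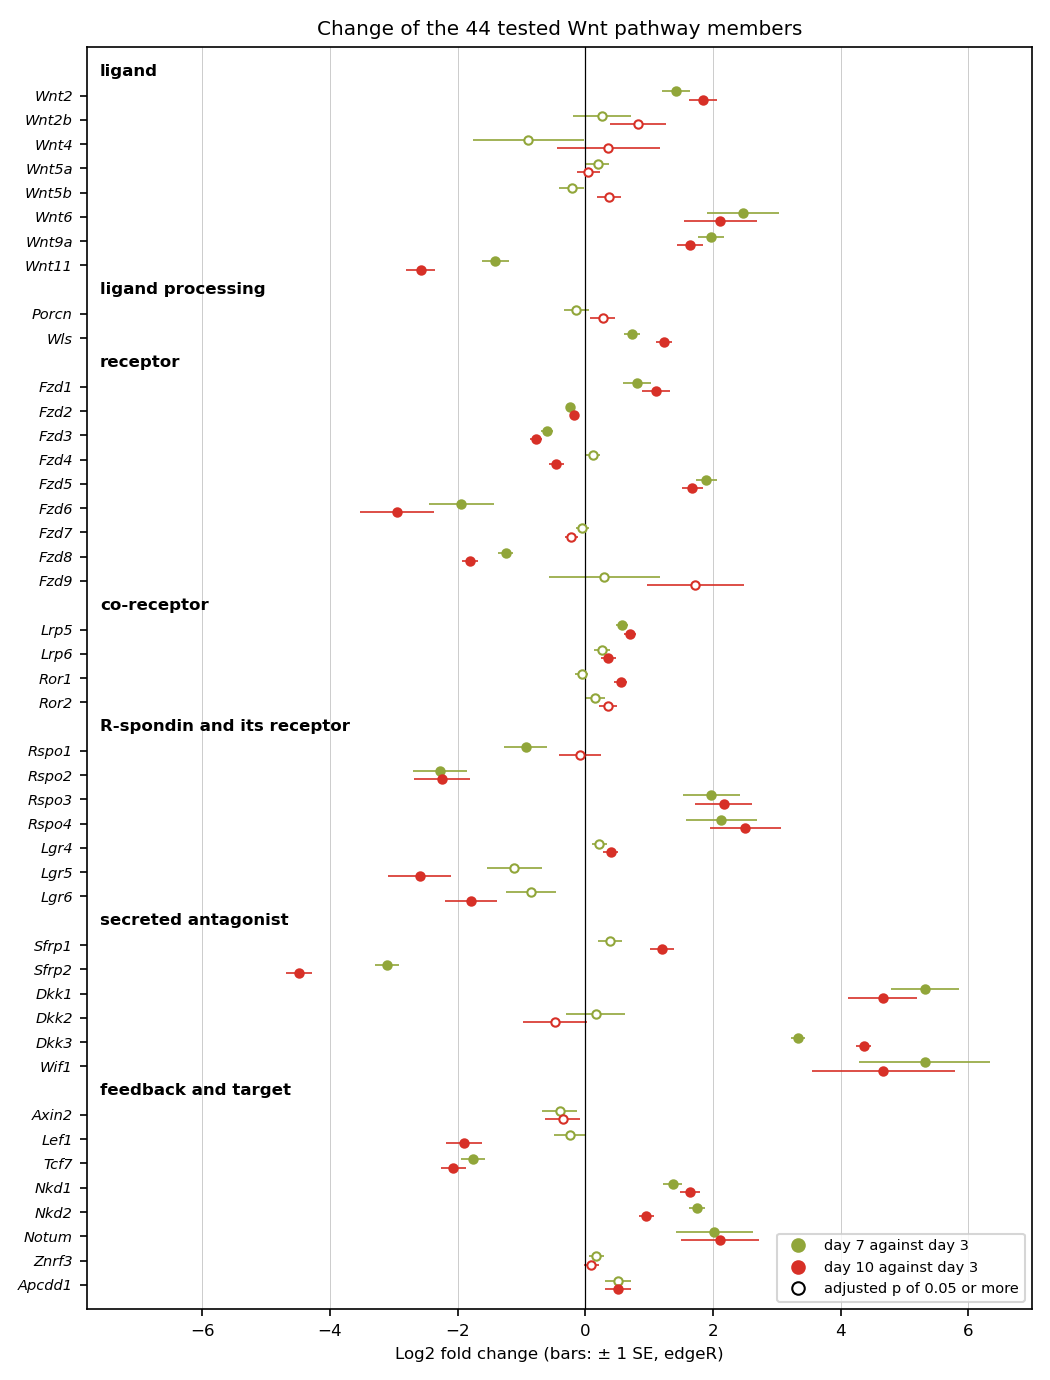
Log2 fold changes (x axis) of the 44 tested members on day 7 and on day 10, each against day 3, grouped by role. Bars are 1 standard error from edgeR, filled points have an adjusted p under 0.05 and open points do not. Dkk3, Dkk1 and Wif1 lie farthest to the right and Sfrp2 farthest to the left.

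The promoters of members were read for the letters of the TCF/LEF motif, because some of these genes are known targets of the pathway itself. The motif was searched as CTTTGAA, as CTTTGAT, as CTTTGTA and as CTTTGTT on both strands in windows of 300 bases, 250 before and 50 after each annotated start site, from RefSeq on GRCm38.p6. Windows were given for 40 of the 61 members. The motif lay in 7 of their 48 windows (14.6%) and in 16.9% of all 32851 windows, so holding these letters did not mark out the members. Of the members with a match, Dkk1 rose and Wnt11 and Lef1 fell from day 3 to day 10, Wnt5b and Fzd7 were not called, and Wnt3 and Sp5 were not tested. The stretches around the matches of these first 5 are shown because their members went different ways. They run 5′ to 3′ on the gene's strand, with the matched letters in capitals.
Dkk1, chr19:30549586-30549615, minus strand: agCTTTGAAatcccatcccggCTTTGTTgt
Wnt11, chr7:98834994-98835083, plus strand: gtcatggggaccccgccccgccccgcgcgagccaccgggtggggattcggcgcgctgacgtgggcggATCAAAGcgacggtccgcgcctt
Lef1, chr3:131156104-131156193, plus strand: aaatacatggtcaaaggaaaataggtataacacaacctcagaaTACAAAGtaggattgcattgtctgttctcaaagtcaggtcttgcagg
Wnt5b, chr6:119449417-119449506, minus strand: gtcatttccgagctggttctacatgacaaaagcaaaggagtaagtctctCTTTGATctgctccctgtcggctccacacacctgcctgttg
Fzd7, chr1:59481977-59482066, plus strand: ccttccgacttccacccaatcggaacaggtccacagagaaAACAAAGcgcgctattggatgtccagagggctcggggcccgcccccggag
The pair of matches in Dkk1 begins 117 and 98 bases before the RefSeq start site, in a stretch that the longer GENCODE model counts as exon. The others begin 51 bases before a start of Wnt11, 147 before a start of Lef1, 71 before a start of Wnt5b and 130 before that of Fzd7. The Lef1 and Wnt5b starts lie inside those genes. No window of Axin2, Nkd1, Nkd2 or Tcf7 held a match, which says only that these letters are not in those windows.

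Among the ligands, 8 of 19 were tested, and between day 3 and day 10 Wnt9a, Wnt2 and Wnt6 rose while Wnt11 fell. Wnt11, a ligand of non-canonical signalling (Entrez 22411, chr7:98835084-98854747), stood at 31.6, 26.15 and 37.65 CPM in the day 3 libraries, 14.2, 9.01 and 12.6 CPM on day 7, and 6.745, 4.12 and 5.19 CPM on day 10. All day 3 libraries lay above all later ones, and days 7 and 10 did not overlap. Both steps were called: its log2 change was -1.41 to day 7 (SE 0.21, adjusted p = 0.000645) and -1.17 from there to day 10 (SE 0.22, adjusted p = 0.0149). The second of these calls ended in the fit to the libraries of days 7 and 10 alone (adjusted p = 0.0557).

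Wnt9a (Entrez 216795, chr11:59306849-59333552) is a ligand known from joint and haematopoietic development. It stood at 2.99, 3.16 and 2.12 CPM on day 3, at 12.1, 11.6 and 8.86 CPM on day 7, and at 7.14, 9.53 and 9.07 CPM on day 10. Every later library exceeded every day 3 library, and days 7 and 10 overlapped. The rise to day 7 was a log2 change of 1.97 (SE 0.20, adjusted p = 5.58e-05), and the step to day 10, at -0.34 (adjusted p = 0.304), was smaller than the first in the test of the difference between steps (adjusted p = 0.00251). Wnt2, the lung-specifying ligand of the mesenchyme, rose from 0.579 ± 0.0342 CPM on day 3 to 1.55 ± 0.0950 on day 7 and stood at 2.08 ± 0.232 CPM on day 10 (SD, n = 3), a log2 change of 1.85 over both steps (SE 0.22, adjusted p = 7.33e-05). Wnt6 rose from 0.257 ± 0.108 CPM to 1.47 ± 0.526 on day 7 and stood at 1.16 ± 0.667 CPM on day 10, a log2 change from day 3 of 2.12 (SE 0.58, adjusted p = 0.0102). On day 10 its lowest library, replicate 3 at 0.424 CPM, lay close to day 3, and its step test (adjusted p = 0.0803) passed without that library (0.0352). Without that library and day 3 replicate 2 its log2 change from day 3 to day 10 was 2.71. Wnt6 passed the filter on low counts only through days 7 and 10.

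The most abundant ligand by counts, Wnt5a, did not pass the test in any comparison. It stood at 34.9 ± 2.43, 39.9 ± 8.62 and 36.1 ± 7.11 CPM on the 3 days, and its log2 change from day 3 to day 10 was 0.05 (SE 0.17, adjusted p = 0.821). Wnt5b, its paralogue, stood at 8.61 ± 1.24, 7.43 ± 0.785 and 11.2 ± 2.93 CPM (log2 change from day 7 to day 10 of 0.59, SE 0.19, adjusted p = 0.0899). Wnt2b, at 0.513 ± 0.241, 0.609 ± 0.188 and 0.913 ± 0.322 CPM, and Wnt4, a ligand of kidney and gonad development, also passed in no comparison. Wnt4 varied within days more than between them: it ranged from 0.394 to 2.87 CPM on day 3 and from 0.298 to 3.88 CPM on day 10, with replicate 3 the highest of both days.

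The other 11 ligands were too low to test. The epithelial ligand Wnt7b had 7 counts in all 9 libraries together, Wnt7a had 3, Wnt3 had 4, Wnt3a had 1 and Wnt8b had none. Wnt1, a ligand of the midbrain and neural crest, had 2 to 19 counts per library. The highest value of any untested ligand was 0.893 CPM, for Wnt9b in day 10 replicate 1.

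Per length of transcript, the make-up of the ligand pool changed while its sum moved less. TPM (counts divided by merged exon length and scaled to the same sum in each library) of the 19 ligands summed to 81.1 ± 5.80 on day 3, 71.2 ± 7.00 on day 7 and 65.8 ± 4.56 on day 10. On day 3, Wnt11 led with 39.0% to 48.8% of the summed TPM over the 3 libraries, followed by Wnt5a with 24.3% to 27.6% and Wnt5b with 14.5% to 22.0%. On day 10, Wnt5a held 23.9% to 36.1% and Wnt5b 23.9% to 34.6%, which did not differ beyond their spread. They were followed by Wnt9a with 15.5% to 18.5%, Wnt11 with 6.45% to 11.8% and Wnt2 with 5.89% to 6.45%. Wnt9a had held 3.41% to 5.85% on day 3, so the ranges of Wnt11 and Wnt9a on those days do not touch.

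Of the ligand-processing genes, Wls, the carrier that brings lipid-modified Wnt to the cell surface (Entrez 68151, chr3:159839650-159938666), rose in both steps. It stood at 89.8, 84.7 and 92.1 CPM on day 3, at 140.4, 142.0 and 159.0 CPM on day 7, and at 255.1, 197.0 and 174.0 CPM on day 10. The 3 days did not overlap. The log2 change from day 3 to day 10 was 1.23 (SE 0.13, adjusted p = 2.81e-05), and that of the second step was 0.50 (adjusted p = 0.0365), a call that ended in 9 of 18 alternatives. They include leaving out each day 3 and day 7 library in turn (0.0587 to 0.128, the highest without day 7 replicate 2) and day 10 replicate 2 (0.0506). Porcn, the acyltransferase that attaches the lipid, stood at 3.84 ± 0.422, 3.48 ± 0.775 and 4.65 ± 0.404 CPM and passed in no comparison.

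**Figure D2:**
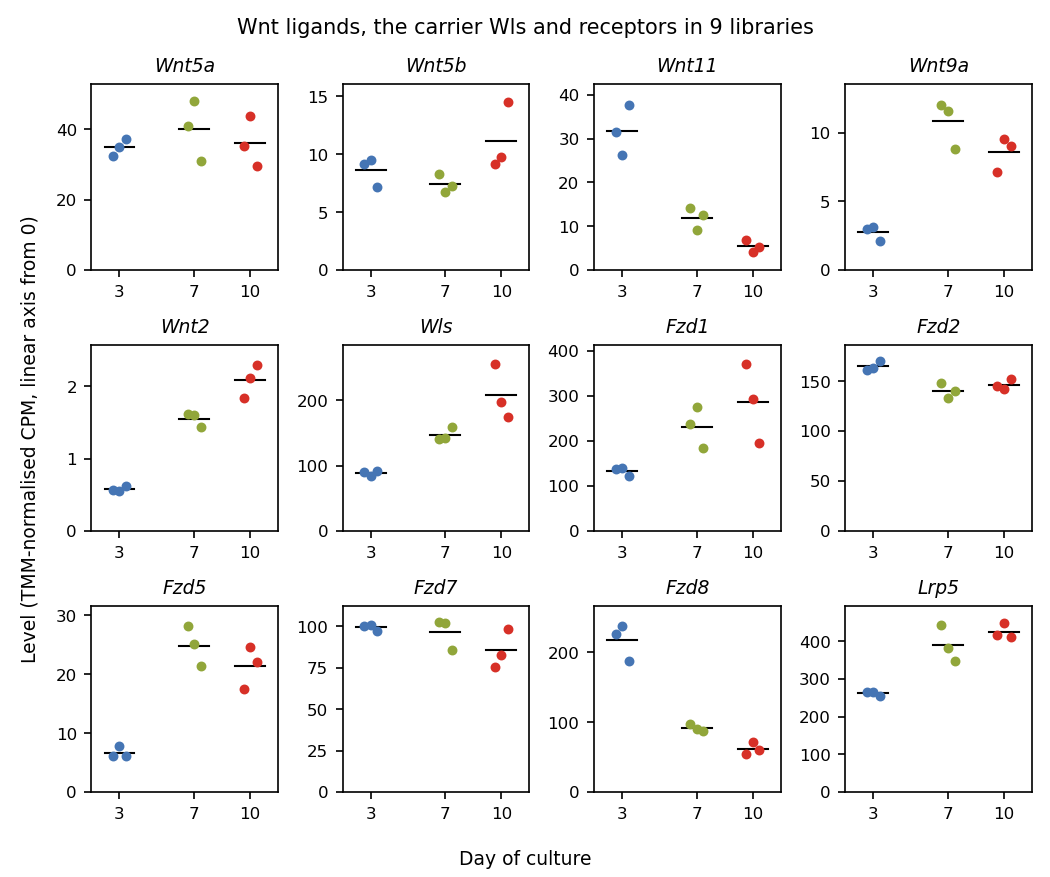
Levels in TMM-normalised CPM (y axis, linear from 0) of 5 ligands, Wls, 5 Frizzled receptors and Lrp5 against day of culture. Points are libraries, set left to right by replicate number, and lines are day means. Wnt11 and Fzd8 step down, Wls and Fzd1 step up, and Wnt5a overlaps on all days.

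Of the 10 Frizzled receptors, 9 were tested, and from day 3 to day 10 Fzd1 and Fzd5 rose while Fzd2, Fzd3, Fzd4, Fzd6 and Fzd8 fell. Fzd8 (Entrez 14370) stood at 226.0, 237.5 and 187.8 CPM on day 3, at 97.6, 90.3 and 87.3 CPM on day 7, and at 53.9, 72.2 and 60.3 CPM on day 10. The days did not overlap, and the log2 change from day 3 to day 10 was -1.80 (SE 0.12, adjusted p = 2.08e-06). Its second step, at -0.56 (adjusted p = 0.0210), was called, but not without day 7 replicate 1 (adjusted p = 0.0602), without day 7 replicate 2 (0.0661) or in the fit to days 7 and 10 alone (0.0557).

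Fzd1 (Entrez 14362, chr5:4753839-4758216) moved the other way. Its levels were 137.0, 138.7 and 121.4 CPM on day 3, 236.2, 274.6 and 183.9 CPM on day 7, and 369.6, 292.2 and 194.3 CPM on day 10. Day 3 lay below both later days, which overlapped. The log2 change from day 3 was 0.81 on day 7 (SE 0.22, adjusted p = 0.0150, and 0.0567 without day 7 replicate 2) and 1.11 on day 10 (SE 0.22, adjusted p = 0.00198). Fzd5 (Entrez 14367, chr1:64730558-64737750), a receptor of canonical ligands, stood at 6.11, 7.81 and 6.13 CPM on day 3, at 28.1, 25.1 and 21.4 CPM on day 7, and at 17.4, 24.6 and 22.0 CPM on day 10. Its rise was complete by day 7: the log2 change was 1.89 (SE 0.16, adjusted p = 2.10e-05) in the first step and -0.22 (adjusted p = 0.424) in the second, and the steps differed (adjusted p = 0.00144). Of its 6915 merged exon bases, 1233 also belong to another transcript model on the other strand, and without the strand of counting the reads cannot be told apart.

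The other Frizzled genes changed less or were scarce. Fzd3, a receptor of planar cell polarity, fell from 60.7 ± 5.99 to 40.2 ± 0.937 CPM by day 7 and stood at 35.5 ± 3.50 CPM on day 10. Fzd4, the receptor of norrin in endothelium, stood at 42.0 ± 3.58 and 45.6 ± 5.46 CPM on days 3 and 7 and fell to 30.6 ± 3.85 CPM on day 10 (log2 change from day 7 of -0.57, SE 0.12, adjusted p = 0.0194; 0.0749 without day 7 replicate 2 and 0.0635 in the fit to days 7 and 10 alone). The 6 endothelium markers together went from 77.1 to 166 CPM on day 7 to 12 to 32.3 CPM on day 10. Of these only Kdr was called in that step (log2 change -2.84, SE 0.57, adjusted p = 0.0222), and its mean went from 91.8 ± 52.2 to 12.8 ± 10.2 CPM. Their part in the fall of Fzd4 was not tested. Fzd6 fell from 0.975 ± 0.340 CPM on day 3 to 0.250 ± 0.160 on day 7 and 0.117 ± 0.0872 on day 10. Its log2 change to day 10 was -2.95 (SE 0.58, adjusted p = 0.00158) and -3.76 without day 10 replicate 3. Fzd6 passed the filter on low counts only through day 3. Its call to day 7, at -1.94, ended without day 3 replicate 3 (adjusted p = 0.0508) or day 7 replicate 1 (0.0514), and it was -2.53 without day 7 replicate 3. Fzd2 stood at 164.9 ± 4.77, 140.4 ± 7.65 and 146.4 ± 4.89 CPM, and its call from day 3 to day 10 (-0.17, adjusted p = 0.0441) ended in 9 of 18 alternatives, among them without any 1 of the day 3 libraries, day 7 replicate 3, or day 10 replicates 1 and 2 (0.0626 to 0.133, the highest without day 3 replicate 3). Its fall to day 7 (-0.23, adjusted p = 0.0166) was not called without day 3 replicate 3 (0.0638) or day 7 replicate 2 (0.0574). Fzd7, at 99.5 ± 1.91, 96.6 ± 9.67 and 85.6 ± 11.6 CPM, and Fzd9, at most 1.02 CPM in any library, passed in no comparison, and Fzd10 was too low to test. Fzd7 was called lower on day 10 than on day 3 without day 10 replicate 3 (-0.32, adjusted p = 0.0116), and Fzd9 higher without day 10 replicate 2 (2.14, adjusted p = 0.0279).

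Summed over the family, Frizzled TPM was 690 ± 32.5 on day 3, 642 ± 51.7 on day 7 and 648 ± 70.0 on day 10. Within that sum Fzd8 went from 22.5% to 26.0% on day 3 to 5.52% to 8.07% on day 10, and Fzd1 from 20.7% to 22.0% to 35.4% to 53.9%. Fzd2 kept a large share, at 29.1% to 33.3% on day 3 and 24.3% to 31.6% on day 10. On the lengths used, the order by TPM on day 3 was Fzd2, Fzd8, Fzd1 and Fzd7, and on day 10 it was Fzd1, Fzd2, Fzd7 and Fzd8. The length used for Fzd8, 5974 bases, is longer than its whole RefSeq span (chr18:9212856-9216201). A shorter length would raise its TPM and share on every day, so its place in both orders is uncertain. On day 10 the lowest library of Fzd1 (35.4%) lay above the highest of Fzd2 (31.6%).

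**Figure D3:**
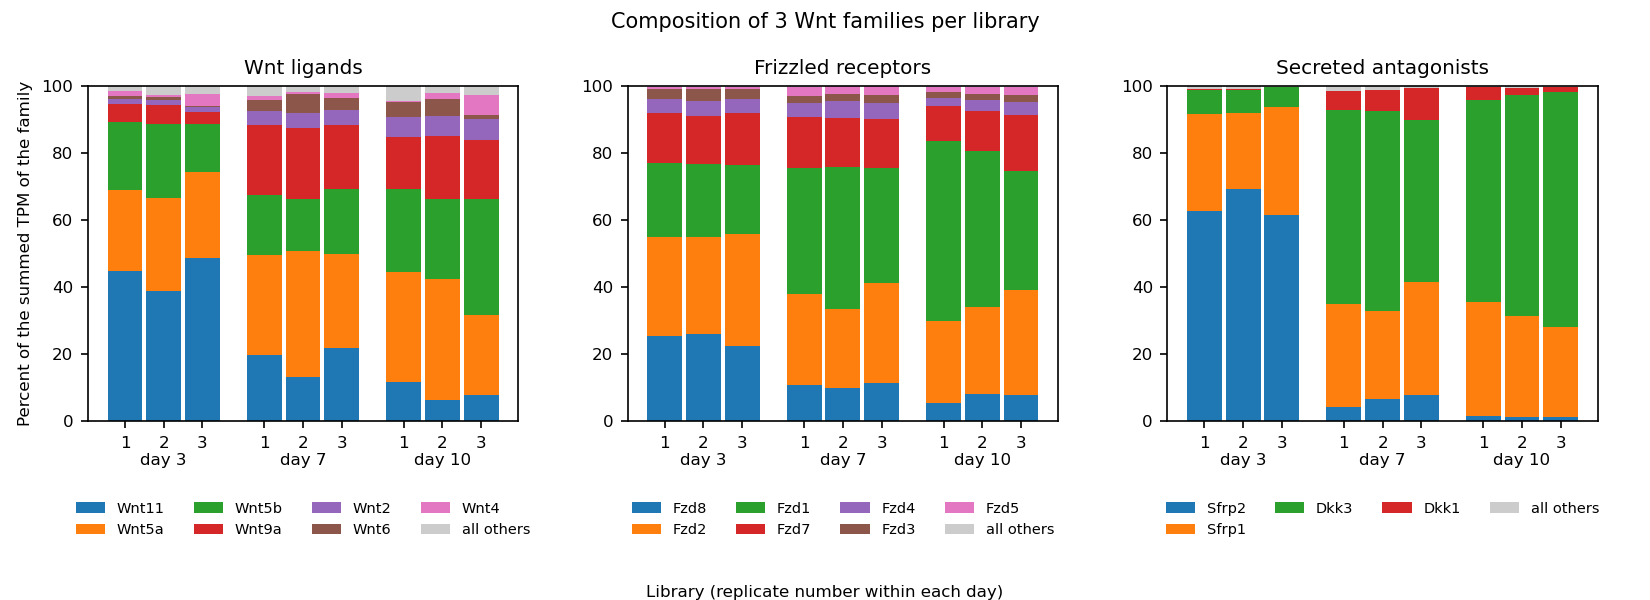
Percent of the summed TPM (y axis) of the Wnt ligands, the Frizzled receptors and the secreted antagonists held by each gene, 1 bar per library. Wnt11, Fzd8 and Sfrp2 (blue, at the base) hold 39.0% to 48.8%, 22.5% to 26.0% and 61.5% to 69.4% on day 3 and at most 11.8%, 8.07% and 1.60% on day 10. The share of Fzd8 depends on the long gene model used for it.

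All 4 co-receptors were abundant. Lrp5, a canonical co-receptor, rose from 261.2 ± 6.09 CPM on day 3 to 391.1 ± 49.0 on day 7 and stood at 424.6 ± 19.6 CPM on day 10, a log2 change from day 3 of 0.70 (SE 0.09, adjusted p = 0.000138). Ror1, a receptor tyrosine kinase of non-canonical signalling, stood at 22.2 ± 1.12 and 21.3 ± 0.799 CPM on days 3 and 7 and rose to 32.6 ± 3.95 CPM on day 10 (log2 change from day 7 of 0.61, SE 0.10, adjusted p = 0.00908). Lrp6, at 165.1 ± 17.7, 197.9 ± 13.6 and 212.2 ± 34.1 CPM, was called higher on day 10 than on day 3 (0.36, adjusted p = 0.0252), but not in 4 of 18 alternatives (up to 0.101, without day 3 replicate 3; 0.0686 without day 3 replicate 1 and 0.0667 without day 10 replicate 3). Between days 3 and 7 it passed without day 10 replicate 3 (0.0260). Ror2, a receptor of Wnt5a, stood at 109.7 ± 2.27, 122.5 ± 17.8 and 140.7 ± 28.2 CPM (log2 change from day 3 to day 10 of 0.36, adjusted p = 0.0609). It passed in 5 of 18 alternatives, among them without day 7 replicate 3 (0.0458) and without day 10 replicate 3 (0.00176).

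The R-spondins split into members that rose and members that fell. Rspo3 (Entrez 72780, chr10:29453106-29535867), an R-spondin of vascular and mesenchymal development, stood at 1.46, 1.58 and 1.06 CPM on day 3, at 6.84, 3.29 and 6.01 CPM on day 7, and at 4.56, 3.52 and 10.3 CPM on day 10. Rspo4 (Entrez 228770, chr2:151842647-151874668), known for nail development, stood at 2.10, 2.72 and 1.37 CPM on day 3, at 12.5, 10.4 and 4.37 CPM on day 7, and at 6.695, 21.4 and 7.34 CPM on day 10. For both genes all later libraries lay above all day 3 libraries, with wide spread within days 7 and 10. The log2 change from day 3 to day 10 was 2.17 for Rspo3 (SE 0.45, adjusted p = 0.00253) and 1.56 without day 10 replicate 3. Without that library the steps of Rspo3 also differed (adjusted p = 0.00983, against 0.179 with it). The log2 change of Rspo4 was 2.51 (SE 0.55, adjusted p = 0.00370) and 1.76 without day 10 replicate 2.

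Rspo2, which in the lung is a mesenchymal R-spondin needed for branching, fell from 2.34 ± 0.730 CPM on day 3 to 0.474 ± 0.174 on day 7 and stood at 0.473 ± 0.271 CPM on day 10, a log2 change from day 3 of -2.24 (SE 0.43, adjusted p = 0.00146). Rspo1 stood at 2.63 ± 0.395, 1.38 ± 0.209 and 2.51 ± 1.19 CPM. Its call from day 3 to day 7 (-0.93, adjusted p = 0.0489) ended in 8 of 18 alternatives, among them without any 1 of the day 3 and day 7 libraries or day 10 replicate 2 (0.0606 to 0.148, the highest without day 3 replicate 2), and in the second step it was called higher without day 10 replicate 3 (0.0210). The 4 R-spondins together had 14.6 ± 3.24 TPM on day 3, 28.5 ± 7.81 on day 7 and 36.5 ± 11.9 on day 10. Rspo1 held 40.4% to 49.9% of that sum on day 3, and Rspo4 held 42.5% to 78.2% on day 10.

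Of the R-spondin receptors, Lgr5 and Lgr6 fell while Lgr4 was called higher. Lgr6 (Entrez 329252, chr1:134983300-135105374) stood at 11.4, 14.6 and 16.1 CPM on day 3, at 8.55, 3.87 and 10.9 CPM on day 7, and at 2.58, 3.16 and 6.32 CPM on day 10. Days 3 and 10 did not overlap and day 7 reached into day 10. The log2 change from day 3 to day 10 was -1.78 (SE 0.41, adjusted p = 0.00446). Lgr5, the stem cell marker of intestine and other epithelia, went from 2.96 ± 1.14 CPM on day 3 and 1.35 ± 0.898 on day 7 to 0.487 ± 0.0375 CPM on day 10 (log2 change from day 3 of -2.59, SE 0.49, adjusted p = 0.00139). The first step alone did not pass for Lgr5 (-1.11, adjusted p = 0.0646) or Lgr6 (-0.85, adjusted p = 0.110). For Lgr5 it passed without day 3 replicate 3 (0.0429) or day 7 replicate 1 (0.00813). Lgr4 went from 40.3 ± 2.02 to 53.1 ± 6.88 CPM between day 3 and day 10 (0.40, adjusted p = 0.0128, and 0.0541 without day 3 replicate 1). It held 73.6% to 75.8% of the summed TPM of the 3 receptors on day 3 and 91.4% to 95.2% on day 10.

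The secreted antagonists held the largest changes among the members. Dkk3 (Entrez 50781, chr7:112116019-112159482), a Dickkopf relative whose action on Wnt signalling is not settled, stood at 9.14, 8.56 and 7.89 CPM on day 3, at 96.45, 89.3 and 72.55 CPM on day 7, and at 181.0, 170.8 and 176.6 CPM on day 10. The days lay far apart and within each the libraries were close. It rose 10.1-fold in the first step (log2 change 3.33, SE 0.11, adjusted p = 1.53e-07) and a further 2.04-fold in the second (1.03, SE 0.10, adjusted p = 0.00151). Dkk1, which blocks Lrp5 and Lrp6 (Entrez 13380, chr19:30545876-30549496, with the pair of TCF/LEF letters printed above), had 6, 7 and 1 counts in the day 3 libraries, or 0.243, 0.276 and 0.0441 CPM. It stood at 6.84, 6.71 and 10.15 CPM on day 7 and at 7.935, 4.12 and 2.96 CPM on day 10. All later libraries lay above all day 3 libraries, and days 7 and 10 overlapped. The log2 change was 5.33 in the first step (SE 0.53, adjusted p = 6.15e-05) and -0.67 in the second (adjusted p = 0.3002), and the steps differed (adjusted p = 0.00147). Dkk1 passed the filter on low counts only through days 7 and 10, so the calls of its rise add little to the counts themselves.

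Sfrp2 (Entrez 20319, chr3:83765750-83774314), a secreted Frizzled-related protein, went opposite to Dkk3. It stood at 50.65, 55.9 and 53.1 CPM on day 3, at 4.70, 6.30 and 7.57 CPM on day 7, and at 3.075, 2.24 and 1.91 CPM on day 10. No day overlapped another. Its log2 change was -3.11 in the first step (SE 0.18, adjusted p = 2.16e-06) and -1.38 in the second (SE 0.20, adjusted p = 0.00645), a 22.4-fold difference between day 3 and day 10. An antisense transcript shares 347 of its 2153 merged exon bases. Sfrp1 (Entrez 20377, chr8:23411383-23449632), of the same family, stood at 47.1, 36.8 and 56.6 CPM on day 3, at 66.2, 51.2 and 65.6 CPM on day 7, and at 132.3, 102.3 and 88.8 CPM on day 10. Day 10 lay above both earlier days, which overlapped. The log2 change was 1.20 from day 3 to day 10 (SE 0.19, adjusted p = 0.000504). The step from day 7 to day 10, at 0.82 (adjusted p = 0.0294), was not called in 7 of 18 alternatives. They include leaving out each day 7 library, day 10 replicate 1 or day 10 replicate 2 (0.0525 to 0.115, the highest without day 7 replicate 2).

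Wif1, which binds Wnt ligands outside the cell, had 1 count in the day 3 libraries together, 60 on day 7 and 34 on day 10. The ratio of day 7 to day 3 was 53.0 (95% counting interval 9.16 to 2130) and that of day 10 to day 3 was 31.7 (5.32 to 1288). These intervals pool the libraries of a day and leave out the spread between them. The edgeR test called both differences (adjusted p = 0.00249 and 0.00501). Wif1 passed the filter on low counts only through days 7 and 10, so these calls add little to the counts themselves. That single day 3 count came from replicate 1, so without that library no count is left on day 3. Dkk2 stood at 0.649 ± 0.395, 0.727 ± 0.298 and 0.461 ± 0.153 CPM and passed in no comparison, Sfrp4 and Sfrp5 were too low to test, and Dkk4 had no count.

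Together the 9 antagonists summed to 180 ± 6.82 TPM on day 3, 207 ± 13.2 on day 7 and 353 ± 33.7 on day 10. Dkk3, whose action on Wnt signalling is not settled, carried this rise, with means of 11.9, 114.4 and 229.7 TPM. The Sfrp genes alone summed to 166 ± 8.15, 75.4 ± 10.2 and 113 ± 23.7 TPM on the 3 days. Sfrp2 held 61.5% to 69.4% of the sum of all 9 on day 3 and 1.18% to 1.60% on day 10, while Dkk3 went from 5.86% to 7.27% to 60.4% to 69.9%. Sfrp1 held 22.5% to 32.3% on day 3 and 27.0% to 33.9% on day 10. Over the same days other cell type markers moved as well. The 5 mesothelium markers together went from 68.9 to 89.8 CPM on day 3 to 18.0 to 28.6 CPM on day 10, the 7 markers of neural crest, neurons and glia from 131 to 176 CPM to 13.1 to 15.5 CPM, and the 4 smooth muscle markers from 150 to 166 CPM to 313 to 698 CPM. The 7 erythroid markers went from 1050 to 1260 CPM to 0.423 to 1.04 CPM, and the 5 leukocyte markers from 5.64 to 7.8 CPM to 2.4 to 5.01 CPM. Their part in the changes of the members was not tested.

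**Figure D4:**
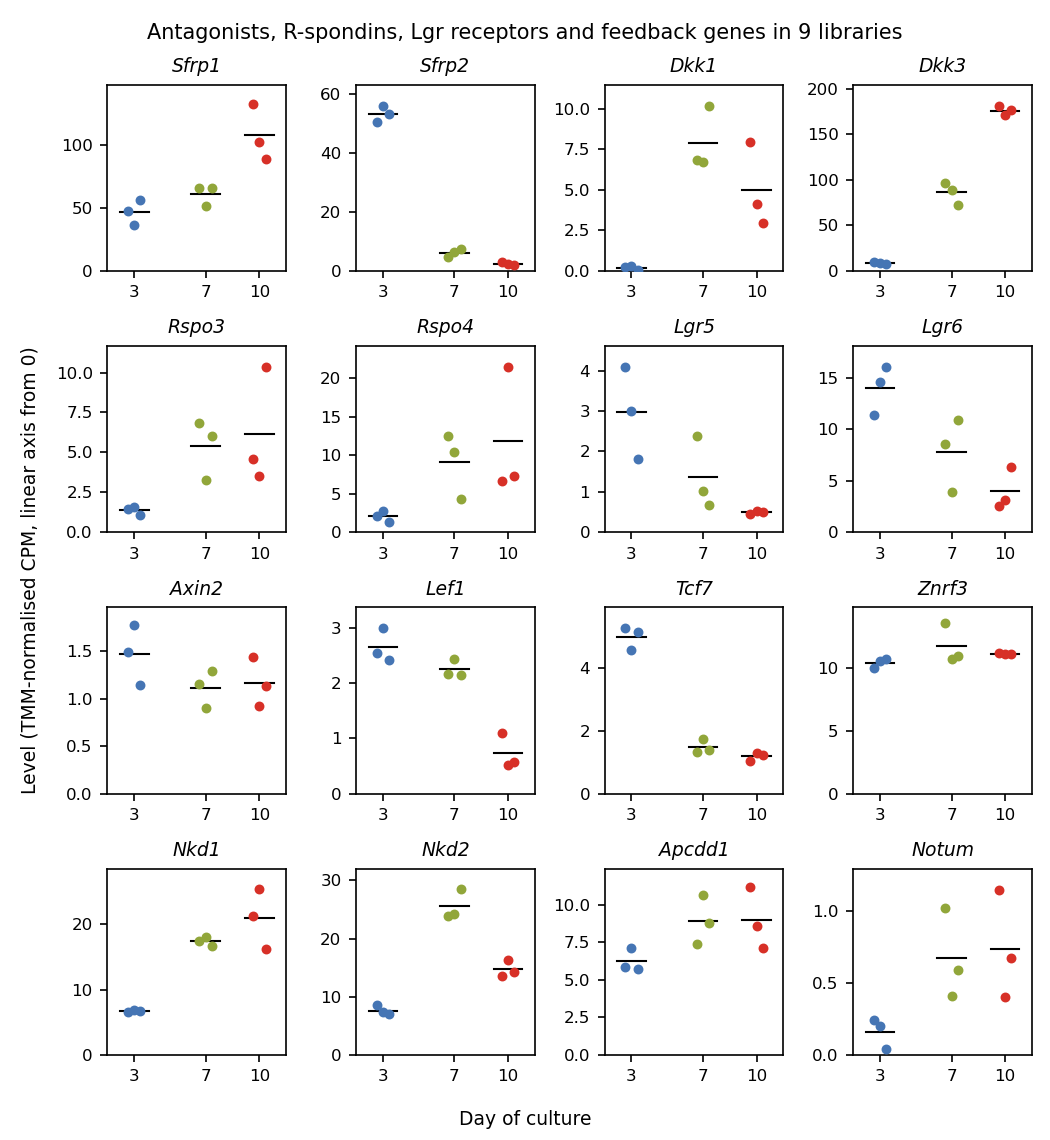
Levels in TMM-normalised CPM (y axis, linear from 0) of 4 antagonists, 2 R-spondins, 2 Lgr receptors and 8 feedback and target genes against day of culture. Points are libraries, set left to right by replicate number, and lines are day means. Sfrp2 drops from above 50 CPM as Dkk3 climbs to above 170 CPM, Nkd2 peaks on day 7, and Axin2 overlaps on all days.

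The feedback and target genes went in different directions. Axin2, the scaffold of the beta-catenin destruction complex that is the most widely used readout of canonical signalling, was low and passed in no comparison, at 1.47 ± 0.315, 1.12 ± 0.194 and 1.16 ± 0.260 CPM on the 3 days. Its log2 change from day 3 to day 10 was -0.35 (SE 0.27, adjusted p = 0.291). Sp5 and Rnf43, which also respond to canonical Wnt signals in many tissues, had 5 and 8 counts over all libraries and were not tested. Znrf3, a ubiquitin ligase for Frizzled receptors, stood at 10.4 ± 0.406, 11.8 ± 1.57 and 11.2 ± 0.0293 CPM and passed in no comparison.

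Nkd1 (Entrez 93960, chr8:88521342-88594887) and Nkd2 (Entrez 72293, chr13:73818534-73847631) encode the naked cuticle proteins, which bind Dishevelled and dampen signalling. Nkd1 stood at 6.51, 6.90 and 6.79 CPM on day 3, at 17.4, 18.1 and 16.7 CPM on day 7, and at 21.2, 25.5 and 16.2 CPM on day 10, a log2 change over both steps of 1.64 (SE 0.15, adjusted p = 1.58e-05). Its second step alone (0.27, adjusted p = 0.294) passed without day 10 replicate 3 (0.0363). Nkd2 stood at 8.495, 7.30 and 7.01 CPM on day 3, at 23.9, 24.15 and 28.6 CPM on day 7, and at 13.6, 16.4 and 14.3 CPM on day 10. Day 3 was the lowest for both genes, but only for Nkd2 did day 10 lie wholly below day 7. The log2 changes of Nkd2 were 1.75 in the first step (SE 0.12, adjusted p = 6.46e-06) and -0.79 in the second (SE 0.12, adjusted p = 0.00703), and its steps differed (adjusted p = 0.000155).

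Notum, a secreted enzyme that removes the lipid from Wnt proteins, had 6, 5 and 1 counts on day 3 and rose from 0.161 ± 0.104 CPM to 0.672 ± 0.313 on day 7, with 0.737 ± 0.375 CPM on day 10. The log2 change from day 3 to day 10 was 2.11 (SE 0.61, adjusted p = 0.0140). Notum passed the filter on low counts only through days 7 and 10. The first step, at 2.02 (adjusted p = 0.0228), was not called without day 3 replicate 2 (0.0561), day 3 replicate 3 (0.0754) or day 7 replicate 1 (0.0996). Antisense transcripts share up to 708 of its 2408 merged exon bases. Apcdd1, a membrane inhibitor of Wnt signalling, stood at 6.25 ± 0.777, 8.92 ± 1.63 and 8.97 ± 2.07 CPM, and its call on day 10 (0.52, adjusted p = 0.0485) ended in 10 of 18 alternatives, among them without day 3 replicates 1 or 3, day 7 replicate 3, or day 10 replicates 1 or 2 (0.0638 to 0.171, the highest without day 10 replicate 1). Its first step (0.51, adjusted p = 0.0636) passed without day 7 replicate 1 (0.0481), day 10 replicate 1 (0.0369) or day 10 replicate 3 (0.0321).

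Tcf7 and Lef1, which encode transcription factors that bind beta-catenin, fell, while their relative Tcf7l1 rose from 181.0 ± 2.53 CPM on day 3 to 257.1 ± 6.82 on day 10 (log2 change 0.51, SE 0.08, adjusted p = 0.000320). Tcf7l2, another relative, went from 67.5 ± 5.69 to 49.6 ± 4.71 CPM (-0.45, SE 0.10, adjusted p = 0.00446). Tcf7 (Entrez 21414, chr11:52246527-52283383), which encodes TCF1, stood at 5.30, 4.58 and 5.16 CPM on day 3, at 1.32, 1.73 and 1.405 CPM on day 7, and at 1.04, 1.28 and 1.235 CPM on day 10. Day 3 lay above the other days. Its log2 change in the first step was -1.76 (SE 0.19, adjusted p = 7.43e-05). Lef1, whose internal start carries the letters printed above, fell later: it stood at 2.66 ± 0.302 and 2.25 ± 0.156 CPM on days 3 and 7 and at 0.725 ± 0.318 CPM on day 10. Its log2 change was -0.24 in the first step (adjusted p = 0.472) and -1.66 in the second (SE 0.29, adjusted p = 0.0110, and 0.0512 in the fit to days 7 and 10 alone). The test of the difference between its steps did not pass (adjusted p = 0.0941), except without day 10 replicate 1 (0.0156).

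Taken by step, 15 members rose and 9 fell from day 3 to day 7 (54.5% of the 44 tested, against 41.8% of all genes, with 22.8% higher and 19.0% lower). A change of at least 2-fold was called for 18 of the 44 tested, against 14.3% of all genes. From day 7 to day 10, Wls, Ror1, Dkk3 and Sfrp1 rose and Nkd2, Fzd8, Sfrp2, Lef1, Fzd4 and Wnt11 fell, which is 22.7% of those tested against 8.51% of all genes (4.41% higher and 4.1% lower). In this step a change of at least 2-fold was called for 4 of the 44 tested, against 2.78% of all genes. With library size as the only scaling, that step had 437 genes higher and 675 lower, against 659 and 612. These steps span 4 and 3 days and share the day 7 libraries. The second step differed from the first for 10 members (22.7% of those tested), against 8.03% of all genes (2.06% higher and 5.96% lower). Of the 10, 3 differed in the direction of a higher second step (Tcf7, Sfrp2 and Ror1). The other 7 went in that of a lower one (Fzd5, Wif1, Wnt9a, Nkd2, Dkk1, Dkk3 and Nkd1). A difference of at least 2-fold was called for 9 of the 44 tested, against 5.35% of all genes. For Dkk3 and Sfrp2 the second step went the same way as the first and was smaller. Of these 10 calls, those of Ror1, Tcf7, Nkd1 and Wif1 ended in 11 of 17, 8 of 17, 6 of 17 and 5 of 16 alternatives, where the adjusted p reached 0.162 for Ror1 (without day 7 replicate 2), 0.137 for Tcf7, 0.0999 for Nkd1 and 0.116 for Wif1. The highest values of Tcf7 and Wif1 came without day 7 replicate 1, and that of Nkd1 without day 7 replicate 2. Leaving out each day 3 library ended the calls of all 4. The step test also passed for Fzd4 and Rspo1 without day 10 replicate 3 (0.0189 and 0.0122) and for Fzd8 without day 10 replicate 1 (0.0365).

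The other genes of the pathway, a list of 64 that holds the intracellular machinery, planar polarity genes, further extracellular regulators and further targets, had 58 tested. From day 3 to day 10, 20 of them rose and 23 fell (74.1% of those tested, against 56.7% of all genes), with a median log2 change of -0.11. In the destruction complex and beta-catenin group, 8 of 14 fell and 1 rose (64.3%). Of all genes 27.2% fell and 29.5% rose. The median size of the log2 change was 0.32 in this group and 0.43 for all genes. Ctnnb1, which encodes beta-catenin and is named after its values were seen, fell from 1253 ± 34.4 CPM on day 3 to 963.7 ± 64.2 on day 10 (log2 change -0.38, SE 0.08, adjusted p = 0.00253). Apc2, a relative of the scaffold Apc, rose from 20.5 ± 2.37 to 53.1 ± 15.7 CPM. Among 12 nuclear genes 3 rose and 6 fell (75.0%, against 56.7% of all genes). The co-repressor gene Tle2 went from 80.0 ± 15.2 to 269.3 ± 80.2 CPM and its relative Tle4 from 103.7 ± 11.3 to 39.1 ± 5.05 CPM.

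Among the 12 planar polarity and non-canonical genes, 6 rose and 4 fell (83.3%, against 56.7% of all genes). Prickle1 rose from 18.6 ± 0.708 to 58.2 ± 5.20 CPM and Vangl1 from 38.9 ± 0.949 to 86.7 ± 14.03 CPM, while Vangl2, Celsr1, Celsr2 and Celsr3 were called lower. Of 9 tested extracellular regulators 5 rose and 1 fell (66.7%, against 56.7% of all genes). Frzb, a secreted Frizzled-related antagonist, rose from 2.21 ± 0.456 to 17.0 ± 10.3 CPM (log2 change 2.93, SE 0.40, adjusted p = 0.000219), and Tspan12, a partner of Fzd4, rose from 17.3 ± 1.76 to 43.5 ± 7.00 CPM by day 7. Of 8 tested further targets 4 rose and 2 fell (75.0%, against 56.7% of all genes). Msx1, a homeobox factor of mesenchyme, rose from 1.12 ± 0.228 to 15.2 ± 5.48 CPM, Cd44, a hyaluronan receptor, from 11.5 ± 1.81 to 51.4 ± 4.62 CPM, and Myc fell from 59.6 ± 2.29 to 21.0 ± 2.17 CPM. These targets also respond to other signals, and their levels are given as measured.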

How the data were processed

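Poly(A) RNA of 9 pneumosphere libraries was sequenced from TruSeq libraries, per the labels' protocols. The authors deposited 1 table of raw read counts per Entrez gene. The submitters' processing notes name featureCounts and mm10. For the aligner, annotation, strand setting and reads with several matches, nothing is given in the sources used here, so reads of antisense transcripts and of close paralogues may be shared. Besides Fzd5, Sfrp2 and Notum, this holds for Lef1 (1208 of 8788 merged exon bases shared with the other strand), Rspo3 (404 of 3090) and Wnt11 (364 of 4137). Wnt5a, Wnt7b, Fzd6 and Axin2 also share exon bases with a model on the other strand. Columns were matched to samples by name. Symbols came from RefSeq (GRCm38.p6, the same assembly) for 25275 of 27179 IDs.

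Genes were kept by filterByExpr (14940), scaled by TMM factors and fitted over all 9 libraries with the robust quasi-likelihood model of edgeR 4.0.16 in R 4.3.3 (biological coefficient of variation 0.146), tested on simulated data first. Each standard error is the size of the log2 change over the root of its F statistic. CPM values are TMM-normalised, with mean ± SD over n = 3 libraries. TPM used merged exon lengths from GENCODE M21 for genes that hold 96.1% of counts. Ratios for days with 1 to 3 counts carry exact 95% binomial counting intervals on library totals. Members called with a change of at least 2-fold and a mean of at least 5 CPM on their higher day are given library by library. Of the other pathway genes, the 10 with the largest called changes of at least 2-fold and a mean of at least 10 CPM are named with values. Values of Ctnnb1, Tcf7l1 and Tcf7l2 are given outside this rule. Alternatives were other scaling factors, other filters, DESeq2 1.42.0, the replicate number as a block, only the days compared, and leaving out libraries. The members and lists were chosen with earlier results of these data known. Library pairs of a day differed beyond counting noise (chi-square per degree of freedom 6.79 to 103).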

Additional observations from a re-analysis of the deposited data

How the results depend on the processing

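Some members called stayed called under every alternative that gave them an adjusted p. These were 19 of 24 (day 7 against day 3), 4 of 10 (day 10 against day 7) and 28 of 32 (day 10 against day 3). For Wif1 in the first of these comparisons, and for Wif1 and Notum in the last, only 16 of 18 alternatives gave one. For Fzd6 in the last it was 17. No called change turned its direction. Without day 3 replicate 2 and day 10 replicate 3 together, the log2 change of Dkk1 from day 3 to day 10 was 5.30 in place of 4.66. From day 3 to day 7, leaving out 1 library gave 14 to 17 members higher and 7 to 9 lower. From day 3 to day 10 it gave 17 to 20 and 11 to 13. Over all genes it gave 2637 to 3765 higher and 2141 to 3385 lower on day 7. On day 10 it gave 3817 to 4387 and 3511 to 4072. From day 7 to day 10, 4 members were called higher, but 2 with library size alone, 2 in the fit to only the days compared, and 2 to 6 without 1 library. Those called lower numbered 6, but 2 in the fit to only the days compared and 4 to 6 without 1 library. The calls over all genes moved with the setting too, from 659 higher and 612 lower in the main fit. They were 437 and 675 with library size alone and 177 and 113 in the fit to only the days compared. The DESeq2 Wald test gave 1070 and 1044, and leaving out 1 library gave 144 to 756 and 160 to 792. Of the other pathway genes, 1 was called higher and 3 lower in that step, but 5 higher with the DESeq2 Wald test, 2 higher with the replicate block, 0 higher and 0 lower in the fit to only the days compared, 5 lower without day 3 replicate 2 and day 10 replicate 3, and 0 to 2 higher and 1 to 6 lower without 1 library. The members whose second step was higher than the first numbered 3, and 1 to 4 without 1 library. Over all genes these were 308, and 114 to 521 without 1 library. Same-numbered libraries deviated from their day means with correlations of -0.0694 to 0.433. Libraries of different days and numbers had -0.356 to 0.221. Not every library correlated best with its own number, and the numbers were not taken as pairs in the main fit. The deposited column names run in sequence across the days within each number, so a shared culture series is possible but not labelled. With the replicate number as a block, 15 members were higher and 10 lower on day 7 than on day 3, 4 and 6 on day 10 than on day 7, and 20 and 12 on day 10 than on day 3. Under the block, Lgr5 (adjusted p = 0.0164) and Lgr6 (0.0407) were called lower on day 7 than on day 3 and Rspo1 was not called (0.0622), Ror2 was called higher on day 10 than on day 3 (0.0190) and Apcdd1 was not (0.0507), and the step test passed for Wnt6 (0.0163) and not for Ror1 (0.0519). Members under about 1 CPM, such as Wif1, Notum, Fzd6 and Fzd9, rest on few counts.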

Other observations

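Among members too low to test, Wnt9b had 18, 7 and 5 counts in the day 10 libraries, 0, 0 and 3 on day 7 and 1, 0 and 0 on day 3. Wnt16 had 5, 13 and 6 counts on day 3, 2, 2 and 4 on day 7, and 0, 0 and 6 on day 10, so its day 10 counts came from replicate 3 alone. Sfrp5 had 8, 4 and 1 counts on day 3 and 1 or 2 in each later library.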
